A study of Homo sapiens with 10 samples.

Results

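SMARCA4 and 9 further genes of the BAF complex were followed at the RNA level in H1 human embryonic stem cells: SMARCA2, ARID1A, ARID1B, SMARCB1, SMARCC1, SMARCC2, SMARCD1, SMARCE1 and ACTL6A. The genes were taken as a fixed list of subunits and matched by symbol, and all 10 were found among the 14785 rows of the table of single libraries. BAF, also called mammalian SWI/SNF, is an assembly of many proteins that uses ATP to slide or evict nucleosomes and so opens DNA to other factors. One ATPase, either SMARCA4 (BRG1) or its close relative SMARCA2 (BRM), sits in each complex, and most other positions are likewise filled by one member of a small family. Mouse pluripotent stem cells are known for a BAF form built on SMARCA4, with ARID1A and a pair of SMARCC1 proteins in place of SMARCC2, and SMARCA4 is needed there for self-renewal.

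The experiment belongs to work on factors thought to shape chromosome contacts around transposable elements, in which chromosome contacts were mapped beside RNA. H1 is an established line with the genotype given as wild type. It was grown in mTeSR1 medium on Matrigel, infected with virus made in 293T cells, and put under puromycin from 2 days later, so the control went through the same steps. The 5 groups carried a short hairpin RNA (shRNA) against SMARCA4 (shSMARCA4), MAFK (shMAFK), E2F6 (shE2F6), KDM1A (shKDM1A) or, as the control, luciferase (shLUC), an insect gene. Each group had 2 libraries, stated to be biological duplicates. How many hairpins were used for a target and the time of harvest are not given in the sources used here, and the cells are a selected population, so fewer cells with a transcript and less transcript per cell cannot be told apart.

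Values are whole numbers normalized by the authors, read here as normalized tag counts, and levels below are in that unit. Libraries all had a median of 594 and totals of 22836548 to 22855295, so the depth behind them is unknown. Replicates of shKDM1A differed most, with a standard deviation (SD) over all rows of 0.53 on the log2 scale against 0.264 to 0.335 in the other groups, and shKDM1A replicate 1 had the lowest value of 5 of the 10 BAF genes (ARID1A, ARID1B, SMARCC2, SMARCD1 and SMARCE1) and tied for the lowest of SMARCC1. All 8 pluripotency markers of a fixed list (POU5F1, SOX2, NANOG, LIN28A, DNMT3B, TDGF1, SALL4 and L1TD1) were in the table, with summed levels of 110531 to 140291 in shSMARCA4 and 137425 to 141021 in shLUC. This sum is carried largely by POU5F1, LIN28A and DNMT3B, whose high values repeat in coarse steps between libraries. POU5F1 was at 51684 and 21308 in shSMARCA4, 35710 in both shLUC libraries and 148866 in shKDM1A replicate 1, so little is read from the sum. Of 7 mesendoderm markers, 3 were in the table (EOMES, MIXL1 and FOXA2), and their sum was 5031 and 1026 in the shSMARCA4 libraries against 10 to 62 in the other 8. The lowest row mean in the table was 19.3, and group means of these 3 markers outside shSMARCA4 were 0 to 26.5. They may be in the table only through their shSMARCA4 values, so this contrast may be fixed in advance and nothing is drawn from it. Sums in shSMARCA4 and shLUC were 5488 to 8599 and 9609 to 11082 for 3 of 6 neural markers, 30 to 44 and 218 to 296 for KRT7, the 1 of 5 trophoblast markers in the table, and 5692 to 6777 and 14255 to 15643 for 4 of 5 fibroblast markers. Within the pluripotency list, NANOG was at 4613 and 3699 in shSMARCA4 against 2512 and 2639 in shLUC. Below shLUC were SOX2, at 4426 and 4748 against 6408 and 6928, and TDGF1, at 9056 and 7313 against 10950 and 13159. Also below were SALL4, at 2910 and 3366 against 3651 and 3755, and LIN28A, at 30774 in both libraries against 41812 in both. POU5F1, DNMT3B and L1TD1 overlapped shLUC. The KRT7 and fibroblast sums of shSMARCA4 lay outside those of all other groups, as did the mesendoderm sum with the limit given above. The neural sum lay below shLUC but overlapped shMAFK and shKDM1A, and the pluripotency sum overlapped shLUC. Not all markers in a sum moved alike. Among fibroblast markers COL1A1 and THY1 were below shLUC, while COL1A2 and PDGFRA overlapped it. Among neural markers TUBB3 was below shLUC, NES overlapped it and DCX was above it. The part of these cell type markers in the results below was not tested.

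Several BAF genes are paralogs, and a reader of their transcript levels has to know how far sequencing reads can tell them apart. The stretches shown here are the 105 coding bases around the longest run of identical bases between the transcripts of each pair (GENCODE 29, GRCh38), 5′ to 3′, with the bases that differ in capitals. The SMARCA4 stretch lies on the plus strand at chr19:10991225-10991323 and chr19:10994828-10994833, and the SMARCA2 stretch on the plus strand at chr9:2056747-2056845 and chr9:2058291-2058296.
SMARCA4: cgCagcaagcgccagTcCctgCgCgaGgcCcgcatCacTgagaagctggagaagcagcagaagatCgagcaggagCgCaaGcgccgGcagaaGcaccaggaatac
SMARCA2: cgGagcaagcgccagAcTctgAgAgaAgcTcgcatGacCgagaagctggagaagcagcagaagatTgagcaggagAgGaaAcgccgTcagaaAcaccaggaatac

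In this stretch of the ATPase pair, 15 of 105 bases differed and the longest identical run was 26 bases. No 50-base window of the SMARCA4 transcript occurred in a SMARCA2 transcript or the reverse. The scaffold pair SMARCC1 and SMARCC2 differed more. Their stretches lie on the minus strand, at chr3:47714415-47714423 and chr3:47710713-47710808 for SMARCC1 and at chr12:56182004-56182012 and chr12:56181740-56181835 for SMARCC2.
SMARCC1: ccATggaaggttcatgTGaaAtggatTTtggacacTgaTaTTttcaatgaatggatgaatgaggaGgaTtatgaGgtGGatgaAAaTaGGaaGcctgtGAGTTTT
SMARCC2: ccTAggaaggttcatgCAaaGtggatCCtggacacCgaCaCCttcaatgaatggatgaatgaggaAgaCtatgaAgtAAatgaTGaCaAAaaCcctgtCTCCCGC

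Here 29 of 105 bases differed and the longest identical run was 23 bases. Between ARID1A and ARID1B the longest run was 25 bases. Sharing with other loci was the larger limit for 2 genes: 54.7% of the 50-base windows of the SMARCB1 transcript also occur in transcripts of DERL3, which overlaps it on the opposite strand, and 60.3% of those of SMARCE1 occur in transcripts of other genes, most of them in AC073508.2, which overlaps it. For the other 8 genes the share was 0 to 6.59%. Whether reads were counted by strand is not given in the sources used here, so the level of SMARCB1 is uncertain. The level of SMARCE1 is uncertain too, and the strand of AC073508.2 is not given here, so counting by strand may not settle it. DERL3 itself had only 24 to 248 in the 10 libraries.

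In control cells SMARCA4 (ENSG00000127616, chromosome 19, 10960825 to 11079426, GRCh38, plus strand) was among the most abundant transcripts. Its level in shLUC was 8230 ± 204 (SD, n = 2), at percentile 97.46 of all rows. Divided by the length of the principal transcript it was 1421 per kilobase (kb), ahead of SMARCC1 at 1229, ACTL6A at 972.1, SMARCD1 at 836.1, SMARCC2 at 554.7, SMARCB1 at 553.2, SMARCE1 at 477.4, ARID1A at 381.0, ARID1B at 267.6 and SMARCA2 at 67.24 per kb. Libraries overlapped between 2 pairs of neighbours in this order, ACTL6A with SMARCD1 and SMARCC2 with SMARCB1. The upper part of the order depended on the length used: per kb of coding sequence, SMARCB1 led with 2495, and SMARCA4 was number 5 with 1666. ARID1A, ARID1B and SMARCA2 were the lowest in that descending order with either length, and SMARCA2, the other ATPase, was the lowest in both.

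**Figure D1:**
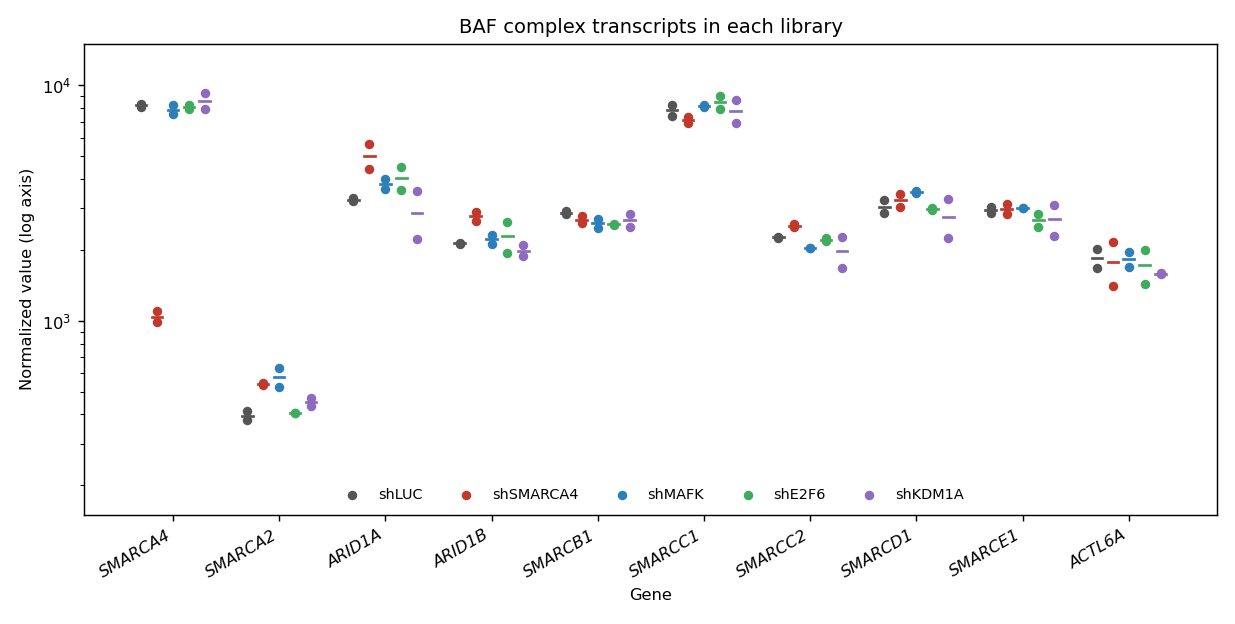
Normalized value (log axis) of the 10 BAF genes in each of the 10 libraries, coloured by group; points are libraries and short lines are group means of 2 libraries. SMARCA4 lies at 985 and 1100 in shSMARCA4 and between 7576 and 9296 elsewhere, while in the other 9 genes the highest library is at most 2.54 times the lowest.

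The target of the hairpin fell strongly, and it was the single BAF gene to pass the test. SMARCA4 stood at 8086 and 8374 in shLUC, 1100 and 985 in shSMARCA4, with shMAFK at 8220 and 7576, shE2F6 at 8220 and 7917 and shKDM1A at 9296 and 7917. Both shSMARCA4 libraries were far below the other 8, which lay within 1.23 times of each other. The mean of 1042.5 ± 81.3 (SD, n = 2) was 12.7% of shLUC, and the log2 change was -2.98 (SE 0.14, 95% interval -3.31 to -2.66, limma adjusted p = 8.55e-05). Against the mean of the other 3 knockdowns, which does not use the control, the log2 difference was -2.97 (SE 0.12, limma adjusted p = 1.43e-05). The other knockdowns left SMARCA4 at 96.0% (shMAFK), 98.0% (shE2F6) and 104.6% (shKDM1A) of shLUC. Of all rows, 4.18% passed in shSMARCA4 against shLUC, so 1 of 10 BAF genes, the target itself, is not a count that sets the list apart.

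Among the 9 BAF genes that were not targeted, 0 of 9 passed at a limma adjusted p under 0.05 in shSMARCA4 against shLUC, and 2 of 9 had an unadjusted p under 0.05, SMARCA2 and ARID1A, both higher. Unadjusted p-values under 0.05 were found for 16.3% of all rows. The median log2 change of the 9 was 0.09, against 0.01 over all rows. The 9 log2 changes lay between -0.14 (SMARCC1) and 0.61 (ARID1A), and their 95% intervals reached from -0.63 (lower bound for ACTL6A) to 1.14 (upper bound for ARID1A). Libraries of shSMARCA4 and shLUC did not overlap in 6 of the 9 (SMARCA2, ARID1A, ARID1B and SMARCC2 above, SMARCB1 and SMARCC1 below), a share near the 51.0% of all rows with such a separation.

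**Figure D2:**
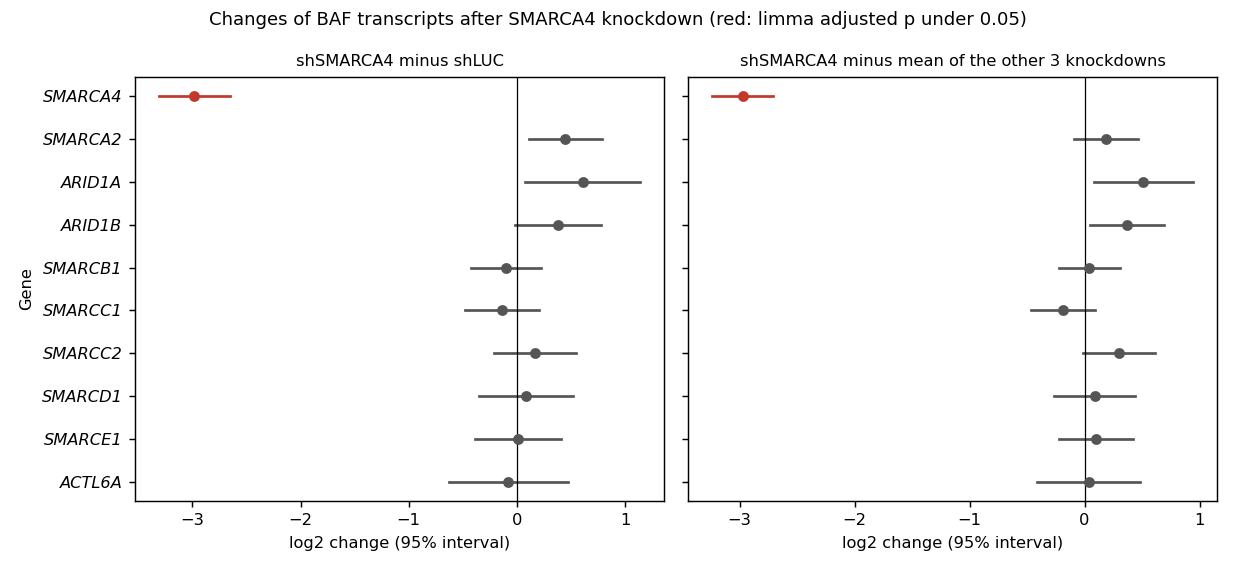
Log2 change of each BAF gene (point) with its 95% interval (line) in shSMARCA4 against shLUC (left) and against the mean of the shMAFK, shE2F6 and shKDM1A groups (right), from limma fits of all 10 libraries; red marks an adjusted p under 0.05. SMARCA4 is at -2.98 and -2.97, and the intervals of ARID1A lie above 0 in both panels without passing the adjusted threshold.

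SMARCA2 (chromosome 9, 1980290 to 2193624) is the ATPase that can take the place of SMARCA4. It had 377 and 412 in shLUC, 544 and 532 in shSMARCA4, 632 and 524 in shMAFK, 404 in both shE2F6 libraries, and 468 and 436 in shKDM1A. The shSMARCA4 libraries were above shLUC, shE2F6 and shKDM1A and within the range of shMAFK. The log2 change in shSMARCA4 was 0.45 (SE 0.15, 95% interval 0.11 to 0.79, limma adjusted p = 0.162), a mean of 136% of the control. The shMAFK value, 147% of the control, was 0.54 (SE 0.15, 95% interval 0.21 to 0.88, limma adjusted p = 0.28). SMARCA2 in shSMARCA4 against the other 3 knockdowns differed by 0.19 (SE 0.12, 95% interval -0.09 to 0.47, limma adjusted p = 0.425). Neither rise passed the adjusted threshold, and a difference of SMARCA2 between the SMARCA4 hairpin and the other 3 was not shown.

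With SMARCA4 so much lower, the make-up of the ATPase pool had to differ, and these ratios are a description with no test. SMARCA2 was 4.66% and 4.92% of SMARCA4 in the shLUC libraries, 49.5% and 54.0% in shSMARCA4, and 4.92% to 7.69% in the other 6, with both shMAFK libraries (7.69% and 6.92%) above the remaining 4. Per kb, SMARCA4 and SMARCA2 together summed to 1489 in shLUC and 271.8 in shSMARCA4, which is 18.3% of the control, and to 1398 to 1685 in the libraries of the other knockdowns. SMARCA4 made up 95.6% and 95.4% of that sum in shLUC and 67.2% and 65.2% in shSMARCA4. SMARCA4 thus stayed the more abundant ATPase transcript after its knockdown, at 180.0 per kb against 91.7 per kb for SMARCA2.

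ARID1A and ARID1B are the large AT-rich interaction domain subunits that define the canonical BAF form, and a complex holds one or the other. ARID1A (chromosome 1, 26693236 to 26782110) had 3226 and 3314 in shLUC, 4426 and 5626 in shSMARCA4, and 3622 and 4003 (shMAFK), 3583 and 4486 (shE2F6) and 2215 and 3550 (shKDM1A) in the other knockdowns. The shSMARCA4 libraries held the highest and the third highest values, with shE2F6 replicate 2 between them. The log2 change was 0.61 (SE 0.24, 95% interval 0.08 to 1.14, limma adjusted p = 0.229) against shLUC and 0.51 (SE 0.19, 95% interval 0.08 to 0.95, limma adjusted p = 0.15) against the other 3 knockdowns. ARID1A passed against shLUC when each group had its own weight (limma adjusted p = 0.0497), where 8.83% of all rows passed, and against the other 3 knockdowns when shKDM1A replicate 2 was left out (limma adjusted p = 0.0151), where 21.0% did.

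ARID1B (chromosome 6, 156776020 to 157210779) had 2139 and 2122 in shLUC, 2664 and 2891 in shSMARCA4, with shMAFK at 2112 and 2322, shE2F6 at 1944 and 2618 and shKDM1A at 1880 and 2090. Both shSMARCA4 libraries were above all 8 others, by a narrow margin over shE2F6 replicate 2. The log2 change was 0.38 (SE 0.18, 95% interval -0.01 to 0.78, limma adjusted p = 0.325) against shLUC and 0.37 (SE 0.14, 95% interval 0.05 to 0.69, limma adjusted p = 0.162) against the other 3 knockdowns. ARID1B as a share of ARID1A was 60.2% and 51.4% in shSMARCA4 and 54.3% to 84.9% in the other 8 libraries, with the top value in shKDM1A replicate 1. The log2 ratio differed by -0.16 between shSMARCA4 and the rest (exact two-sided permutation test over 45 splits, p = 0.311, also 0.311 after adjustment over 2 ratios). The shSMARCA4 values of this ratio overlapped those of the other groups, although shSMARCA4 replicate 2 was the lowest of the 10.

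SMARCC1 (BAF155) and SMARCC2 (BAF170) form the scaffold pair on which the other core subunits assemble. SMARCC1 (chromosome 3, 47585272 to 47782106) had 7442 and 8223 in shLUC, 7315 and 6930 in shSMARCA4, and 8223 and 8088 (shMAFK), 7919 and 9058 (shE2F6) and 6930 and 8630 (shKDM1A) in the other knockdowns. SMARCC2 (chromosome 12, 56162983 to 56189567) had 2249 and 2273 in shLUC, 2493 and 2586 in shSMARCA4, with shMAFK at 2030 and 2046, shE2F6 at 2178 and 2240 and shKDM1A at 1668 and 2273. Each shSMARCA4 library was thus in the lower part of the SMARCC1 range and above all others for SMARCC2. Neither gene passed alone in the fit of all 10 libraries: against shLUC the log2 changes were -0.14 for SMARCC1 (SE 0.15, limma adjusted p = 0.763) and 0.17 for SMARCC2 (SE 0.17, limma adjusted p = 0.73), and against the other 3 knockdowns -0.19 (limma adjusted p = 0.436) and 0.30 (SE 0.14, 95% interval -0.01 to 0.61, limma adjusted p = 0.245). Without shKDM1A replicate 2, SMARCC2 passed in the latter comparison (limma adjusted p = 0.0253), as did 21.0% of all rows.

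Within each library, SMARCC2 was 34.1% and 37.3% of SMARCC1 in shSMARCA4, 30.2% and 27.6% in shLUC, and 24.1% to 27.5% in the other 6. No library of another group reached the shSMARCA4 values, and shLUC replicate 1 came nearest. Such a separation was common among single rows: of all 14785, shSMARCA4 lay above all 8 others in 1275 and below them in 1243. Its share among ratios of other gene pairs was not computed. The log2 ratio was 0.44 higher in shSMARCA4 than in the rest (exact two-sided permutation test over 45 splits, p = 0.0222, the smallest it can give, 0.0444 after adjustment over 2 ratios). The splits take the 8 other libraries as single units, although they are 4 groups of 2 replicates, so this p is not one over groups. When any 1 library was left out the difference stayed between 0.38 and 0.51, but the smallest exact p that fewer splits allow then gave adjusted values of 0.0556 to 0.222. Without both shKDM1A libraries it was 0.42 (exact permutation adjusted p = 0.0714, from the smallest p that 28 splits allow).

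**Figure D3:**
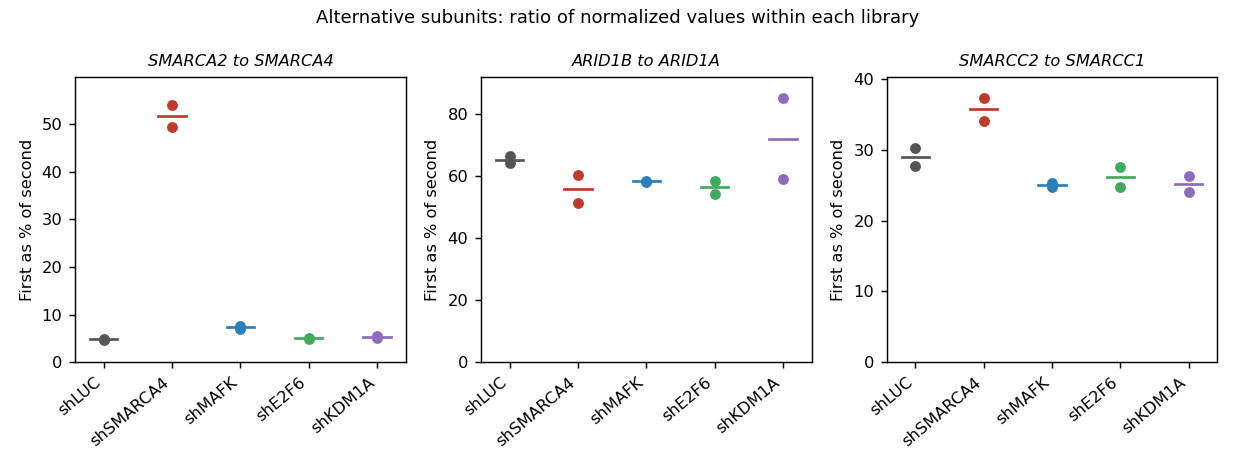
Ratio of the normalized values of 3 pairs of alternative subunits, as percent, in each library (points), with the mean of each group of 2 libraries (lines). SMARCA2 reaches 49.5% and 54.0% of SMARCA4 in shSMARCA4, ARID1B to ARID1A overlaps between the groups, and SMARCC2 to SMARCC1 is highest in shSMARCA4 at 34.1% and 37.3%.

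None of the remaining 4 members passed in any comparison. SMARCB1 (SNF5; chromosome 22, 23786931 to 23838008), the core subunit that contacts the nucleosome's acidic patch, had 2934 and 2830 in shLUC, 2594 and 2782 in shSMARCA4, and 2712 and 2483 (shMAFK), 2555 and 2576 (shE2F6) and 2842 and 2512 (shKDM1A) in the other knockdowns. Its log2 change in shSMARCA4 was -0.10 (SE 0.14, 95% interval -0.42 to 0.22), and it had the narrowest range of the 10 genes, 1.18 times from lowest to highest. The shLUC libraries were above those of shSMARCA4, shMAFK and shE2F6, at log2 changes of -0.10, -0.15 and -0.17 that share the same controls, and none passed.

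SMARCD1 (BAF60A; chromosome 12, 50084972 to 50100712), which links the complex to transcription factors, had 3247 and 2870 in shLUC, 3046 and 3450 in shSMARCA4, with shMAFK at 3476 and 3550, shE2F6 at 2967 and 3007 and shKDM1A at 2240 and 3276. SMARCE1 (BAF57; chromosome 17, 40624962 to 40648864), a subunit with a DNA-binding HMG box, had 3046 and 2870 in shLUC, 3126 and 2842 in shSMARCA4, and 3007 and 3025 (shMAFK), 2830 and 2505 (shE2F6) and 2295 and 3110 (shKDM1A) in the other knockdowns. In both genes the shSMARCA4 and shLUC libraries overlapped, with log2 changes of 0.09 (95% interval -0.35 to 0.52) for SMARCD1 and 0.01 (95% interval -0.39 to 0.41) for SMARCE1. ACTL6A (BAF53A; chromosome 3, 179562880 to 179588408), the actin-related subunit of stem and progenitor cells, had 2022 and 1674 in shLUC, 2170 and 1400 in shSMARCA4, with shMAFK at 1958 and 1690, shE2F6 at 2006 and 1436 and shKDM1A at 1580 and 1596. Its shSMARCA4 replicates were at once the highest and the lowest of the 10 libraries, and the change of -0.08 has the widest interval of the list (-0.63 to 0.47). Replicate 1 was above replicate 2 in shLUC, shMAFK and shE2F6 too, so this order is not particular to shSMARCA4.

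None of the other knockdowns moved a BAF gene past the threshold. In shMAFK, shE2F6 and shKDM1A against shLUC, limma called 0 of 10 in each, where 0.0135%, 0% and 0.0271% of all rows passed. Unadjusted p-values under 0.05 were found for 1 (SMARCA2), 0 and 0 of the 10, against 8.77%, 5.09% and 11.5% of all rows. The smallest adjusted p of the list was 0.28 for shMAFK, 1 for shE2F6 and 0.583 for shKDM1A. Libraries did not overlap with shLUC in 5, 4 and 3 of the 10, against 49.1%, 40.7% and 38.8% of all rows. Without SMARCA4, the median log2 change of the other 9 genes was 0.06 for shMAFK, -0.03 for shE2F6 and -0.15 for shKDM1A. Over all rows these medians were -0.004, -0.003 and -0.02. In shKDM1A, 8 of these 9 changes were negative, and SMARCA2 was the exception at 0.20. Of all 14785 rows, 7082 were positive in that comparison. The 9 changes share the same shLUC and shKDM1A libraries, so they are not separate observations. The group with the lowest library of 5 genes was also the one with the widest replicates over all rows. ARID1A, SMARCC2, SMARCD1 and SMARCE1 had log2 differences of 0.68, 0.45, 0.55 and 0.44 between the shKDM1A replicates, where ARID1A for example had 2215 and 3550. This did not hold for ARID1B, with 0.15 in shKDM1A and 0.43 in shE2F6, or for ACTL6A, with 0.015 in shKDM1A. The part of replicate spread in these changes was not tested.

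Differences among the 4 knockdowns were tested with an F-test that leaves the control mean aside. SMARCA4 passed (limma adjusted p = 0.000142), and 6.64% of all rows did. SMARCA2 (limma adjusted p = 0.158) and ARID1A (limma adjusted p = 0.187) came next, as the only other members with an unadjusted p under 0.05, which 23.6% of all rows had. In the comparison of shSMARCA4 with the other 3 knockdowns, SMARCA4 was again the 1 of 10 to pass, where 8.70% of all rows passed. Both shSMARCA4 libraries lay above all 8 others in 2 of the 9 untargeted genes, ARID1B and SMARCC2, while 8.62% of all rows showed that order.

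Complexes of the family also hold subunits outside these 10 genes, and 19 of them were listed, of which 16 were in the table and DPF3, SMARCD3 and ACTL6B are not analysed here. In shSMARCA4 against shLUC, 2 of 16 passed, where 4.18% of all rows did. Both were higher, as were 1.67% of all rows, and 0 of 16 were called lower, where 371 of all 14785 rows were. Unadjusted p-values under 0.05 were found for 2 of the 16 in this comparison, beside 16.3% of all rows. The median log2 change of the 16 was 0.04. Both shSMARCA4 libraries were above all 8 others in 3 of the 16 (BCL7C, BICRAL and SS18), against 8.62% of all rows. For shMAFK, shE2F6 and shKDM1A 0 of 16 passed in each, where 0.0135%, 0% and 0.0271% of all rows did. Of the 16, 2, 0 and 1 had an unadjusted p under 0.05, beside 8.77%, 5.09% and 11.5% of all rows.

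The larger change was that of BCL7C (chromosome 16, 30833626 to 30894960, minus strand), one of the small BCL7 subunits found in all forms of the complex. It had 292 and 246 in shLUC, 554 and 514 in shSMARCA4, and 156 and 142 (shMAFK), 235 and 248 (shE2F6) and 274 and 168 (shKDM1A) in the other knockdowns. Both shSMARCA4 libraries were above all others and both shMAFK libraries below all others. The log2 change in shSMARCA4 was 0.99 (SE 0.23, 95% interval 0.47 to 1.51, limma adjusted p = 0.0461), a mean of 199% of the control, and against the other 3 knockdowns it was 1.43 (SE 0.19, limma adjusted p = 0.00231). The call against shLUC was lost when any of the 8 libraries outside shKDM1A was left out (limma adjusted p 0.0797 to 0.317), whereas the difference from the other 3 knockdowns passed under 18 of 18 alternatives. For shMAFK the log2 change of BCL7C was -0.84 (SE 0.23, limma adjusted p = 0.265), which did not pass. Its paralogs BCL7A (0.33) and BCL7B (-0.16) did not pass in shSMARCA4. Of the 50-base windows of BCL7C, 26% occur also in transcripts of other loci, mainly the overlapping MIR762HG, so the level of BCL7C is uncertain.

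BICRAL (chromosome 6, 42746958 to 42868560, plus strand), the paralog of the BICRA scaffold of the non-canonical complex, was the other. It had 474 and 408 in shLUC, 664 and 897 in shSMARCA4, with shMAFK at 579 and 525, shE2F6 at 506 and 618 and shKDM1A at 538 and 548. The shSMARCA4 libraries were the highest and shLUC the lowest of all groups. The log2 change was 0.81 (SE 0.19, 95% interval 0.38 to 1.24, limma adjusted p = 0.0472) against shLUC and 0.49 (SE 0.15, limma adjusted p = 0.0909) against the other 3 knockdowns. The call was lost without any of the 8 libraries outside shKDM1A (limma adjusted p 0.06 to 0.335). BICRA itself (-0.21) and BRD9 (-0.15), the bromodomain subunit of the same complex, did not pass.

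Of the subunits of PBAF, the polybromo form, ARID2 had a log2 change of 0.53 (1722 and 2362 in shSMARCA4 against 1436 and 1367), PBRM1 0.21, PHF10 0.28 and BRD7 -0.08 in shSMARCA4, and none passed. Of the 50-base windows of BRD7 and PHF10, 56.7% and 22.9% occur also in transcripts of other loci, so the levels of these genes are uncertain. SS18, the subunit fused in synovial sarcoma, had 1983 and 1908 in shSMARCA4, above the 1048 to 1780 of the other libraries, with a log2 change of 0.17 (limma adjusted p = 0.789). SMARCD2, a paralog of SMARCD1, had -0.41 (limma adjusted p = 0.321), and DPF1, DPF2 and SS18L1 had 0.38, -0.13 and -0.17. ACTB took only 2 values, 148866 or 61943, which are the top steps of the normalization, so no change is read from it.

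**Figure D4:**
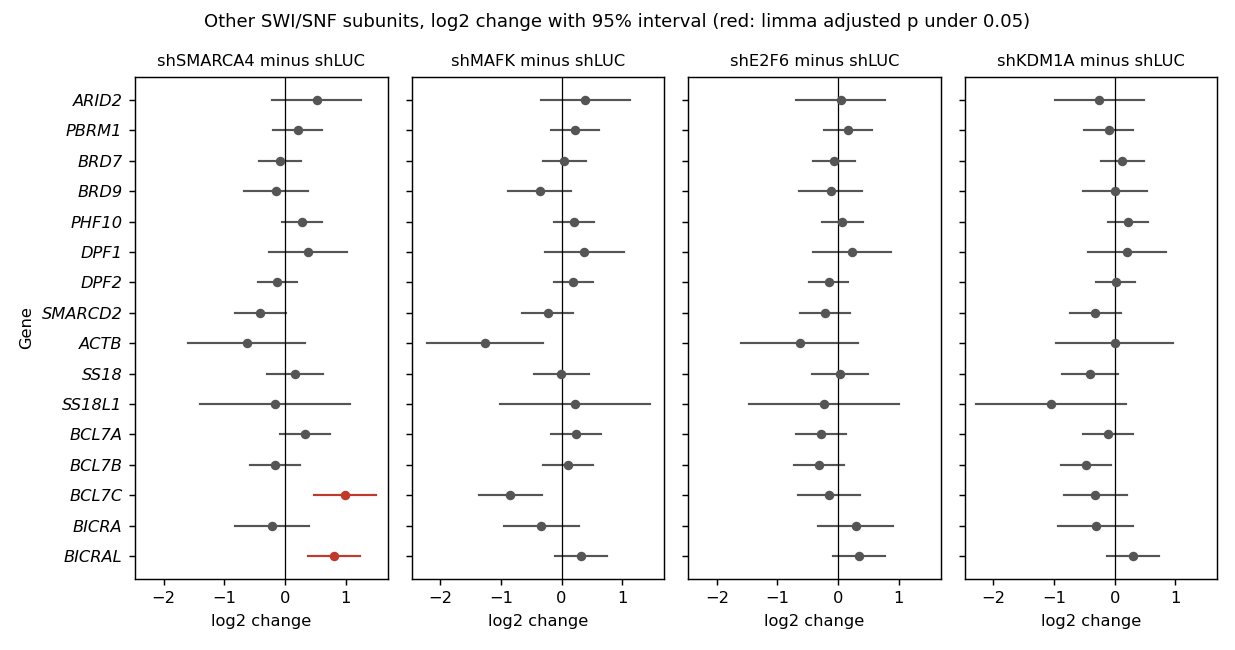
Log2 change (points) with 95% interval (lines) of 16 other SWI/SNF subunits in each knockdown against shLUC, from the limma fit of all 10 libraries; red marks an adjusted p under 0.05. BCL7C at 0.99 and BICRAL at 0.81 in shSMARCA4 are the 2 that passed.

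Other families of ATP-dependent remodellers were set beside BAF with a list of 22 genes, all in the table (ISWI, CHD, INO80 and related ATPases with some partners). In each knockdown against shLUC 0 of 22 passed, where 4.18% (shSMARCA4), 0.0135% (shMAFK), 0% (shE2F6) and 0.0271% (shKDM1A) of all rows did. In the same order, unadjusted p-values under 0.05 numbered 2, 0, 0 and 1 among the 22, beside 16.3%, 8.77%, 5.09% and 11.5% of all rows. Their median log2 change in shSMARCA4 was 0.14. Against the other 3 knockdowns 1 of 22 passed, no more than the share of all rows (8.70%). It was CHD3, an ATPase of the NuRD complex, with 980 and 1126 in shLUC, 1627 and 1464 in shSMARCA4, and 843 and 828 (shMAFK), 982 and 918 (shE2F6) and 1036 and 1166 (shKDM1A) in the other knockdowns. Its shSMARCA4 libraries were above all others, and the difference was 0.69 on the log2 scale (SE 0.12, limma adjusted p = 0.0104). Without shSMARCA4 replicate 1 or replicate 2 the adjusted p was 0.113 or 0.0599. Against shLUC the log2 change of CHD3 was 0.55 (SE 0.15, 95% interval 0.21 to 0.90, limma adjusted p = 0.0895).

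The genes whose levels over the 10 libraries were most like those of SMARCA4 were then listed, by the root-mean-square distance of log2 values centred on each gene's mean, over 13758 gene rows with a mean of at least 50. Among the nearest were CHRNA9 at 0.26, VASN at 0.27, NGFR at 0.33 and TEK at 0.34, where the median distance of all ranked rows was 1.22. CHRNA9, a nicotinic receptor subunit, had 119 and 136 in shLUC, 14 and 22 in shSMARCA4, and 100 to 175 elsewhere. VASN, a membrane protein that binds TGF-beta, had 176 and 264 in shLUC, 30 and 23 in shSMARCA4, and 156 to 313 elsewhere. Their log2 changes in shSMARCA4 were -2.79 (SE 0.29) and -2.99 (SE 0.25), and those of NGFR and TEK were -2.67 and -2.55. None of the other 9 BAF genes was near: their ranks ran from 3145 (SMARCC1) to 12502 (ARID1A). The likeness rests on the 2 shSMARCA4 libraries, which hold nearly all of the spread of SMARCA4, and is a description.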

How the data were processed

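RNA-seq of 10 libraries (NEB Next Ultra kit, Illumina NovaSeq, RNA integrity at least 8.0, per the labels' protocols) was analysed from the authors' deposited scores: normalized values in whole numbers, which are not counts of reads. Per the submitters' processing notes, STAR, STARsolo and the hg38 build were used; the counter, annotation and normalization are not given in the sources used here. The authors' group means were not used. Groups and columns were matched by the labels. Values were taken as log2(value + 1) and fitted with limma 3.58.1 in R 4.3.3 (lmFit, eBayes with trend, two-sided) over all 10 libraries and 14785 rows, with 5 residual degrees of freedom and Benjamini-Hochberg adjustment at 0.05; a minimum mean of 10 removed 0 rows. Such log2 changes understate those of low rows. Ratios of paralogs were tested by exact permutation of libraries. The fit was tested on simulated data. Positions, transcripts and shared 50-base windows came from GENCODE 29. Tables and plots used Python 3.11.15, pandas 2.3.3 and matplotlib 3.10.9. Members and lists were chosen with earlier results of these data known. Named genes were the 10 members, listed subunits in the table, listed remodellers that passed, and the 5 rows nearest to SMARCA4, of which 1 is not reported here. Replicate numbers were not taken as pairs. Alternatives changed the pseudocount, the minimum mean, the scaling, the variance model, group weights, the libraries fitted, and a replicate block. The 2 scaling alternatives could change little, since all libraries already had a median of 594 and nearly equal totals. With quantile normalization or equal medians of middle rows, 605 or 617 rows passed in shSMARCA4 against shLUC, where 618 did in the main fit. A shift of all levels together could not be seen in such values.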

Additional observations from a re-analysis of the deposited data

Results flagged for a closer look

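Differences among the 4 knockdowns, tested without the control mean, passed the threshold in 3 of the 48 listed genes, 6.25% where 6.64% of all rows did. SMARCA4 had a limma F-test adjusted p of 0.000142, as the target of 1 of the 4 hairpins. BCL7C had 0.00857, with group means of 534 (shSMARCA4), 149 (shMAFK), 241.5 (shE2F6) and 221 (shKDM1A). CHD3 had 0.0319 (limma F-test adjusted p), with 1545.5, 835.5, 950.0 and 1101 in the same order.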

How the results depend on the processing

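SMARCA4 passed in shSMARCA4 under 20 of 20 alternatives against shLUC (limma adjusted p 2.72e-06 to 0.00432) and 18 of 18 against the other 3 knockdowns. Of 2614 values of single genes under alternatives, 2502 kept their direction and side of the threshold, 15 newly passed, 23 no longer passed, 57 that had not passed changed sign, and 17, all of ACTB, were at 0 before or after. Many of these 2614 values could not change direction. A log2 change is a difference of group means, which another variance model or the loss of a library outside the compared groups leaves as it was. The count that kept their direction is therefore no measure of robustness. With a weight for each group, 2 BAF genes passed in shSMARCA4 (ARID1A joined), where 8.83% of all rows passed, and in shMAFK 1 BAF gene (SMARCA2, limma adjusted p = 0.0398) and 1 other subunit (BCL7C), where 3.29% did. The 2 other subunits called in shSMARCA4 became 1 in rows with a mean of at least 200 and 0 with no variance trend, where 3.76% and 4.10% of all rows passed. They became 1 in a fit of the 2 groups only and 1 with the replicate block, where 6.20% and 4.35% did. The block kept BCL7C and changed no count of BAF genes. In the fit of 2 groups only, 1 other subunit passed in shMAFK (ACTB, with identical replicates). The numbers were not taken as pairs because 2 of 10 pairs of groups had a correlation of same-numbered deviations over 0.1 (range -0.05 to 0.34). Some BAF genes still followed the replicate number. ARID1A and SMARCC2 were higher in replicate 2 of every group, and ARID1B and SMARCD1 in replicate 2 of every group but shLUC. SMARCA4 was higher in replicate 1 of every group but shLUC, and ACTL6A in replicate 1 of every group but shKDM1A. The order was mixed or tied for the other BAF genes. Leaving out 1 library gave 0 to 2 other subunits in shSMARCA4 (2 only without a shKDM1A library) and 0 to 2 in shKDM1A. It gave 1 to 3 BAF genes against the other 3 knockdowns and 1 to 4 in the F-test, with the highest of these counts when shKDM1A replicate 2 was left out, where 21.0% and 35.9% of all rows passed; the 2 in shKDM1A also came without it, where 21.9% did. The difference in the SMARCC2 to SMARCC1 ratio was 0.42 without both shKDM1A libraries and 0.38 to 0.51 without 1 library; that of ARID1B to ARID1A was -0.28 to -0.05. The causes of these shifts were not tested. Depth is unknown and each group has 2 libraries, which limits what could be called.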
